A study of Homo sapiens with 6 samples.

Results

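The genes described here are the 5 antiproliferative adaptors BTG1, BTG2, BTG3, TOB1 and TOB2, followed through a switch of p53 on and off in a human colon cancer line. They were taken by symbol, and all 5 were among the 18701 genes with a value on the array and among the 14025 bright enough to be tested. The cells were HT29-tsp53, a colorectal adenocarcinoma line (HT-29, whose own p53 is mutant) with an added mouse V135A p53, a temperature-sensitive form that works at 32 °C and not at the restrictive temperature. All groups carried this transgene. Controls were taken before any shift (0 h, p53 off), the p53 on cultures after 16 h at 32 °C, and the p53 on then off cultures after the same 16 h plus 6 h of recovery, with n = 2 Affymetrix Human Gene 1.0 ST arrays of total RNA per group. The labels disagree on whether the restrictive temperature was 38 or 37 °C, and 1 field of the recovery samples names 32 °C for the last 6 h. Each group has 1 array from experiment 1 and 1 from experiment 2. Nothing says that the experiments were separate thaws or clones, so p-values measure the spread between these arrays. No cells without the transgene are among the samples, so active p53 and the shift to 32 °C cannot be told apart. Controls were taken at 0 h only, so added time in culture cannot be told apart from these either. The same holds for a change of temperature in recovery.

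BTG and TOB proteins share an N-terminal domain that binds the nuclease subunits CNOT7 and CNOT8 of CCR4-NOT, the main complex that shortens the poly(A) tails of messages in the cytoplasm. By linking that complex to poly(A)-binding protein or to sequence-specific RNA-binding proteins, they speed deadenylation and so shorten the life of messages, and raising them slows proliferation in many cell types. BTG2 is a long-known target of p53, and the series asks what part mRNA decay has in p53-induced expression.

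The arrays followed their labels at known p53 targets outside the family. The log2 signal of CDKN1A, whose product p21 blocks cell cycle kinases, was 8.32 and 7.91 with p53 on, against 4.83 and 4.99 with p53 off, and 4.92 and 4.78 after recovery. That of MDM2, which marks p53 for degradation, was 10.97 and 10.89 with p53 on, against 7.51 and 7.31 with p53 off, and 7.60 and 7.40 after recovery. Of 9 measured markers of intestinal epithelium 8 were above the limit below which genes were too dim to test (log2 3.62, the dim value), while the intestinal cadherin gene CDH17 was below it. The summed signal of the epithelial markers lay between log2 13.63 and 13.90 with p53 on, against 13.04 and 13.70 with p53 off, and between 13.65 and 13.81 after recovery. All 5 fibroblast markers had means above the dim value, with single values of at most 5.89, and their sum lay between 6.84 and 7.03 with p53 on, against 6.84 and 6.91 with p53 off, and between 6.89 and 7.21 after recovery. Of 4 leukocyte markers CD68 (5.72 to 6.65 over the 6 arrays) and ITGAM (5.04 to 5.46) were above the dim value, while PTPRC and CD3E were below it. The leukocyte sum lay between 6.92 and 7.22 with p53 on, against 6.63 and 6.91 with p53 off, and between 6.88 and 7.04 after recovery. The part of these shifts in the results below was not tested. A level measured in bulk RNA cannot tell fewer expressing cells from less RNA per cell.

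BTG2, an adaptor of CCR4-NOT that is induced by p53 and by growth and stress signals, had the largest change of the family in both directions of the switch. Its value, the median of 6 probe sets on the log2 scale, was 8.42 in experiment 1 and 8.16 in experiment 2 with p53 on, against 5.87 and 5.69 with p53 off. Both arrays with p53 on lay more than 2 log2 units above both control arrays. The rise was 2.51 ± 0.20 log2 units (standard error, limma, adjusted p = 0.00454), or 5.69-fold, with 2.54 in experiment 1 and 2.47 in experiment 2. It was the rise of rank 26 among all 14025 genes. BTG2 was the only member that passed an adjusted p under 0.05 without regard to experiment number, 1 of 5, where 0.898% of all genes tested passed as higher. The call was lost without control array 1 (2.60, adjusted p = 0.0676) or control array 2 (2.42, adjusted p = 0.0729), and it held in each fit that left out another array. When experiment number was added to the fit as a replicate block, the rise was called at adjusted p = 0.000121, and in all 6 blocked fits that left out 1 array.

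After 6 h of recovery BTG2 stood at 5.56 and 5.47, against 8.42 and 8.16 with p53 on. By the gene's median both recovery arrays were also below the control array of their own experiment, by 0.31 in experiment 1 and 0.22 in experiment 2. That median fell on different probe sets in the control and recovery arrays. Relative to p53 on, BTG2 fell by 2.78 ± 0.20 log2 units (limma, adjusted p = 0.00976), or 6.85-fold, the fall of rank 11 among all genes, and 1 of 5 members passed as lower where 0.285% of all genes did. Each fit without the block that left out 1 array, and the fit of only the groups compared, lost this call (adjusted p between 0.0503 and 0.12, differences between -2.90 and -2.65). The block called it at adjusted p = 0.000144, and so did all 6 blocked fits without 1 array. The loss amounted to 110.6% of the rise on the log2 scale, with 112.3% in experiment 1 and 108.9% in experiment 2. Recovery minus control was -0.27, with a 95% interval from -0.75 to 0.22 (adjusted p = 0.999), or from -0.65 to 0.12 with the block. A return to the control level, to slightly below it or to slightly above it all lie within both intervals.

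The probe sets of BTG2 fell into separate ranges of response. With p53 on minus p53 off, averaged over the experiments, 3 probe sets differed by 4.02, 3.90 and 3.69 log2 units. A further one differed by 3.05 as measured, but it read 3.46 and 2.20 with p53 off, below the dim value, so the size of that difference is uncertain. The remaining probe sets differed by 0.97 and 0.57, and 1 of these was 1.14 in experiment 1 but -0.01 in experiment 2. All 6 were lower after recovery than with p53 on in both experiments, with average differences between -4.05 and -0.90. Recovery minus control averaged 0.21, -0.15 and -0.02 in the 3 with the largest rises. It averaged -0.43 in the dim one, and -0.50 and -0.33 in the remaining ones. An end below control was thus not shared by all probe sets. With p53 on, the 6 probe sets ran from 6.19 to 10.57 in experiment 1, and the gene's median fell between a strongly and a weakly responding one. The gene-level difference of 2.51 therefore lies below the measured differences of 4 of the 6 probe sets, the dim one included, and the mean over probe sets gave 2.70 (adjusted p = 0.00324). The positions of the probe sets in the transcript were not used here.

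TOB1, the relative that joins CCR4-NOT to poly(A)-binding protein and is also known as a brake on growth factor and SMAD signalling, had the next largest differences. It stood at 8.72 and 9.55 with p53 on, against 7.44 and 8.04 with p53 off. Both p53 on arrays were above both control arrays. The difference was 1.40 ± 0.40 log2 units, or 2.64-fold, with 1.29 in experiment 1 and 1.52 in experiment 2. It was not called without the block (limma, adjusted p = 0.159) and was called with it (adjusted p = 0.0024), as in all 6 blocked fits that left out 1 array (adjusted p between 0.000206 and 0.0193). With the block 2 of 5 members, BTG2 and TOB1, passed as higher, where 5.18% of all genes tested did.

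The experiments differed in the level of TOB1. Experiment 2 was above experiment 1 by 0.60 log2 units with p53 off, 0.83 with p53 on and 0.84 after recovery. In all but 1 array the gene's median over 5 probe sets fell on the same probe set, which had 7.44 and 7.95 with p53 off. In control array 2 the median fell on another one, at 8.04. Each of the 5 probe sets was higher with p53 on in both experiments, with averages between 0.79 and 1.45. When the gene value was the mean of the probe sets, the rise was 1.02 ± 0.16 and was called without the block (adjusted p = 0.0276).

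After recovery TOB1 stood at 7.57 and 8.41, against 8.72 and 9.55 with p53 on. Within each experiment the recovery array lay between the p53 on array and the control array. The difference from p53 on was -1.15 ± 0.40 (adjusted p = 0.291), and the block called it as a fall (adjusted p = 0.0084), with -1.16 in experiment 1 and -1.15 in experiment 2. With the block 2 of 5 members passed as lower, again BTG2 and TOB1, where 3.39% of all genes did. By the gene's median TOB1 lost 82.2% of its rise on the log2 scale, with 89.8% in experiment 1 and 75.7% in experiment 2. Averaged over the experiments, its 5 probe sets rose by 1.04, 1.01, 0.80, 0.79 and 1.45 with p53 on. In the same order recovery minus p53 on was -1.34, -1.24, -0.69, -1.58 and -1.15. Some probe sets thus lost more than their rise and others less. Recovery minus control was 0.25, with a 95% interval from -0.69 to 1.19, or from -0.14 to 0.64 with the block. That value was -0.18 with the mean of probe sets, so these arrays do not show which side of control TOB1 ended on. Whether BTG2 and TOB1 differed in how completely they returned was not tested.

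**Figure D1:**
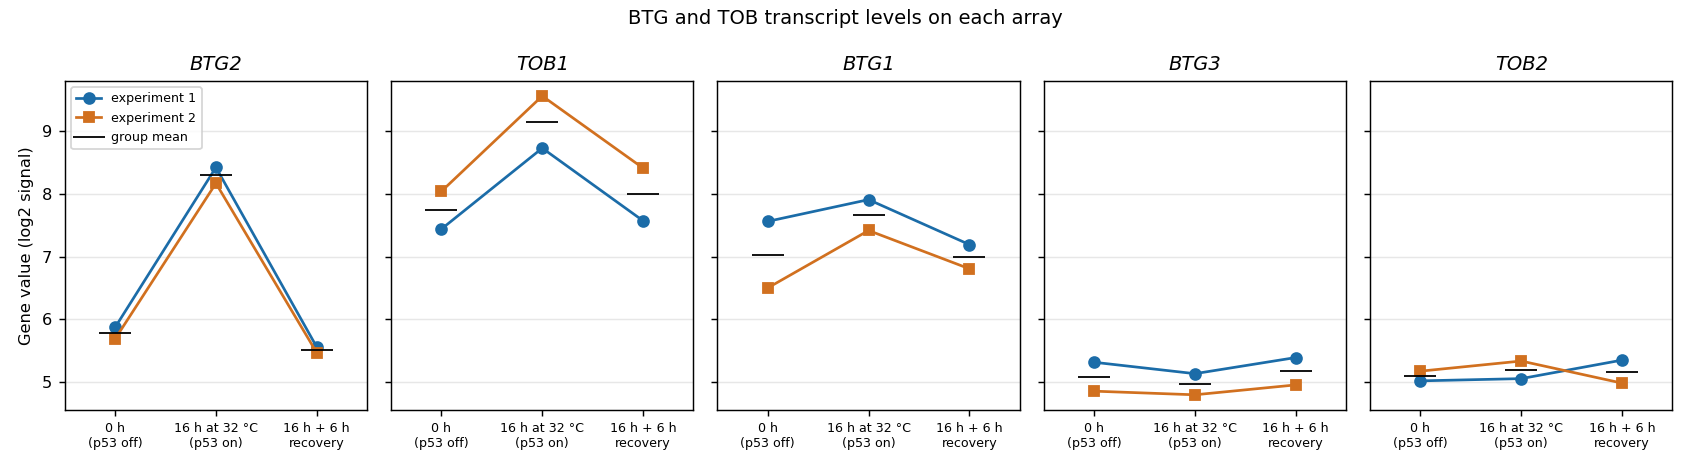
Gene value (log2 signal, median of the gene's probe sets) of each family gene on the 6 arrays, at 0 h, after 16 h at 32 °C and after 6 h of recovery. Lines join the arrays of 1 experiment and black bars are group means (n = 2). BTG2 peaks at 8.42 and 8.16 and TOB1 at 8.72 and 9.55 with p53 on, while BTG3 and TOB2 stay between 4.80 and 5.39. Heights are not comparable between genes.

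BTG1, the closest relative of BTG2 and a gene often highly expressed in resting cells, had differences of the same signs, none of which passed the test. It stood at 7.90 and 7.41 with p53 on, against 7.56 and 6.50 with p53 off. The groups overlap, since p53 on array 2 was below control array 1, but within each experiment p53 on was higher. The difference was 0.63 ± 0.38 (adjusted p = 0.502, or 0.0878 with the block), with 0.35 in experiment 1 and 0.91 in experiment 2. Experiment 2 was below experiment 1 by 1.06 log2 units in control, 0.49 with p53 on and 0.38 after recovery, so the control arrays differed most. Without control array 1 the difference was 1.16, and without control array 2 it was 0.10. After recovery BTG1 stood at 7.19 and 6.81, below both p53 on arrays. The difference from p53 on was -0.66 ± 0.38 (adjusted p = 0.567, or 0.0956 with the block), with -0.71 and -0.61 in the experiments. Each of its 5 probe sets was higher with p53 on than in control and lower after recovery than with p53 on, in both experiments. These probe sets share their RNA and are no replicates. Recovery minus control was -0.03, from -0.37 in experiment 1 to 0.30 in experiment 2. In experiment 2 the median fell on different probe sets in the control and recovery arrays. Compared each with itself there, the 5 probe sets gave -0.24, -0.21, -0.45, 0.03 and 0.39. These arrays therefore do not show which side of control BTG1 ended on.

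BTG2, TOB1 and BTG1 were the members that were higher with p53 on than with p53 off and lower after recovery than with p53 on in both experiments, and their upstream sequences are shown for that reason, a choice made after their values were seen. TOB2 was also higher with p53 on in both experiments, by 0.04 and 0.16, but not lower after recovery in experiment 1. The sequences are the 250 bases before the start of each gene in RefSeq (GRCh38.p14), written 5′ to 3′ on the gene's strand: chr1:203305269-203305518 (plus strand) for BTG2, chr17:50866355-50866604 (minus strand) for TOB1 and chr12:92145847-92146096 (minus strand) for BTG1. Capitals mark the motif CCAAT, the GC box GGGCGG, the motif TGACG and the TATA box TATAAA. Matches on the opposite strand are marked too, and the first of these then reads ATTGG, the GC box reads CCGCCC and the motif TGACG reads CGTCA.
BTG2: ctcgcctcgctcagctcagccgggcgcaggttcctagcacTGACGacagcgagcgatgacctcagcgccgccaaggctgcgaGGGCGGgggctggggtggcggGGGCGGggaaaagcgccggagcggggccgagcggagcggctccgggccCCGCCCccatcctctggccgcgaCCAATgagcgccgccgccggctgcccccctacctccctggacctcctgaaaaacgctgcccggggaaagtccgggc
TOB1: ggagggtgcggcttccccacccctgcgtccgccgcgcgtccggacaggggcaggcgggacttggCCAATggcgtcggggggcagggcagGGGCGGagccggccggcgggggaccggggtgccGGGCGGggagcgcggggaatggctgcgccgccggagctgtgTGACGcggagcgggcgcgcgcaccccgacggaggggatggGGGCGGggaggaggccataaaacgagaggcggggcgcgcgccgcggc
BTG1: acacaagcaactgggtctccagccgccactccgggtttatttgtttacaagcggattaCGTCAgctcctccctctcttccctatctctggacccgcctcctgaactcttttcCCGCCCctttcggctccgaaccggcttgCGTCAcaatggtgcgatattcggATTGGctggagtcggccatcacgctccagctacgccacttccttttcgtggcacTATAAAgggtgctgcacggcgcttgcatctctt
CCAAT occurred once in each of these 3 windows, and 32% of the 35116 RefSeq promoter windows of the same length hold it. TGACG, part of the cyclic AMP response element, occurred in all 3, with 2 matches in BTG1, and 21.2% of all windows hold it. GGGCGG occurred 3 times in BTG2, 3 times in TOB1 and once in BTG1, and in 42.6% of all windows. TATAAA was present in BTG1 only, between 33 and 28 bases before the start, and in 10.7% of all windows. The windows of BTG3 and TOB2 held 2 GC boxes each and neither CCAAT nor TGACG. TOB1 has a further start in the same table whose window held none of these motifs. The p53 half-site consensus, searched on both strands with no mismatch, was in none of the members' windows and in 5.57% of all windows. The best match had 1 mismatch in BTG2, TOB2 and the TOB1 window shown, and 2 in BTG1, BTG3 and the further TOB1 window. How many of all windows hold such inexact matches was not counted. These matches describe the letters of the windows only, and they were noticed with the expression values known.

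BTG3, a family member known to bind the transcription factor E2F1, did not differ detectably in any comparison. It stood at 5.14 and 4.80 with p53 on, against 5.32 and 4.86 with p53 off, and at 5.39 and 4.96 after recovery. The groups overlap, and experiment 2 was below experiment 1 by 0.34 to 0.46 log2 units in each group. With p53 on minus p53 off the difference was -0.12 with a 95% interval from -0.75 to 0.51 (adjusted p = 0.897), and -0.18 and -0.06 within the experiments. The interval leaves out a rise of the size seen in BTG2. Recovery minus p53 on was 0.21 (interval -0.42 to 0.84, adjusted p = 0.868). Of its 8 probe sets, 6 had opposite signs in the experiments for p53 on minus p53 off, and 1 was higher and 1 lower in both. One dim-to-moderate probe set was higher after recovery than in control by 1.12 and 1.98, and the other 7 averaged between -0.49 and 0.60 in that comparison.

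TOB2, the close relative of TOB1, also showed no detectable difference. It stood at 5.06 and 5.34 with p53 on, against 5.02 and 5.18 with p53 off, and at 5.35 and 4.99 after recovery. The groups overlap in every comparison. P53 on minus p53 off was 0.10 (95% interval -0.44 to 0.63, adjusted p = 0.901) and recovery minus p53 on was -0.03 (-0.56 to 0.51, adjusted p = 0.991), where experiment 1 gave 0.29 and experiment 2 gave -0.35. The interval for p53 on minus p53 off leaves out the 1.40 estimated for TOB1, but the difference between the genes was not tested. Its 6 probe sets ran from a mean of 3.17, below the dim value, to 7.52. The 2 brightest, at 7.49 and 7.52, differed by -0.05 and -0.21 with p53 on and by 0.28 and 0.27 after recovery relative to p53 on. The dimmest differed by 0.23 in experiment 1 and -2.61 in experiment 2. A further probe set that carries several symbols was left out. The sign of the gene's difference followed the summary, with -0.23 for the mean of probe sets and -0.19 for probe sets above the dim value.

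**Figure D2:**
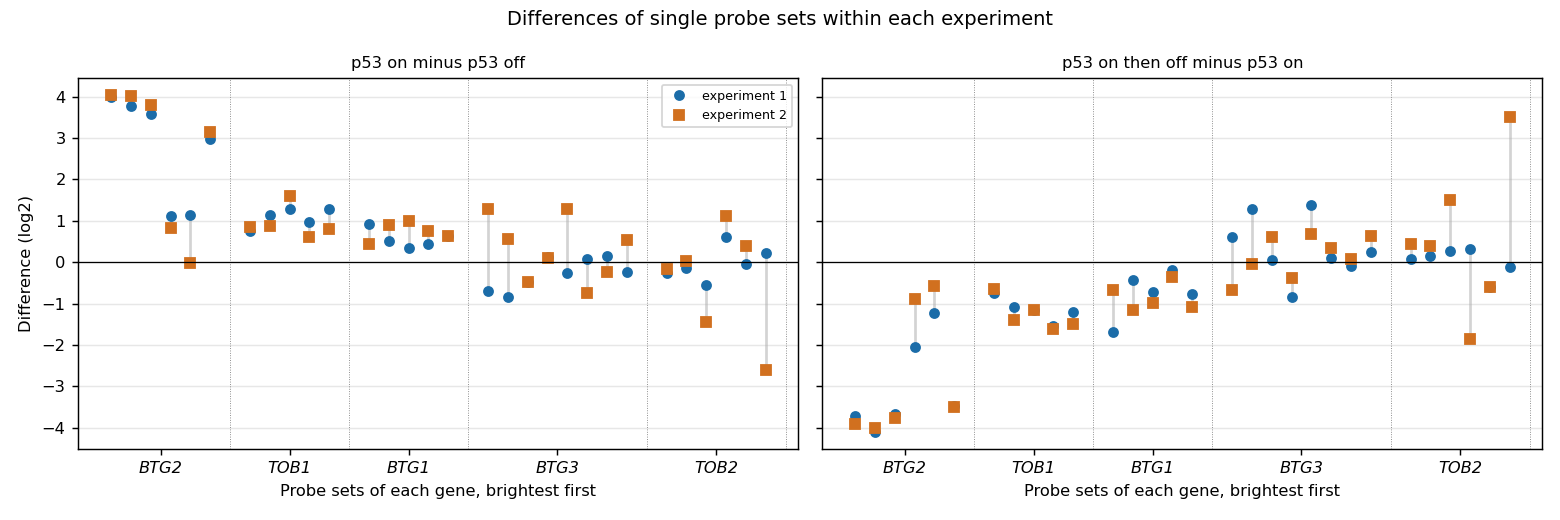
Difference (log2) of every probe set of the 5 genes within experiment 1 (circles) and experiment 2 (squares), for p53 on minus p53 off (left) and p53 on then off minus p53 on (right), with each gene's probe sets ordered by their mean signal over all 6 arrays, highest first. All probe sets of TOB1 and BTG1 lie above 0 on the left and below 0 on the right, 4 of 6 for BTG2 lie near 3 to 4 on the left (1 of them below the dim value in control), and those of BTG3 and TOB2 scatter around 0.

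None of the 5 members passed the test for p53 on then off against p53 off, with or without the block (limma). Of all genes, 0.0285% passed in either direction without the block and 0.599% with it. At an unadjusted p under 0.05 in limma 0 members passed in either fit, where 746 of all 14025 genes did without the block and 1821 with it. Differences lay between -0.27 for BTG2 and 0.25 for TOB1. The family's median difference was 0.63 for p53 on minus p53 off, beside 0.02 for all genes tested, -0.66 for recovery minus p53 on, beside 0.02, and 0.07 for recovery minus control, beside 0.03. With 5 members each median is the value of 1 gene. It is that of BTG1 in the comparisons with p53 on and of TOB2 in the last, and none of these values was called. The medians therefore do not show a shift shared by the family. The comparisons with p53 on share the p53 on arrays, so a high value there moves both. Quantile normalization and centring of the arrays kept the sign of every member in all comparisons.

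**Figure D3:**
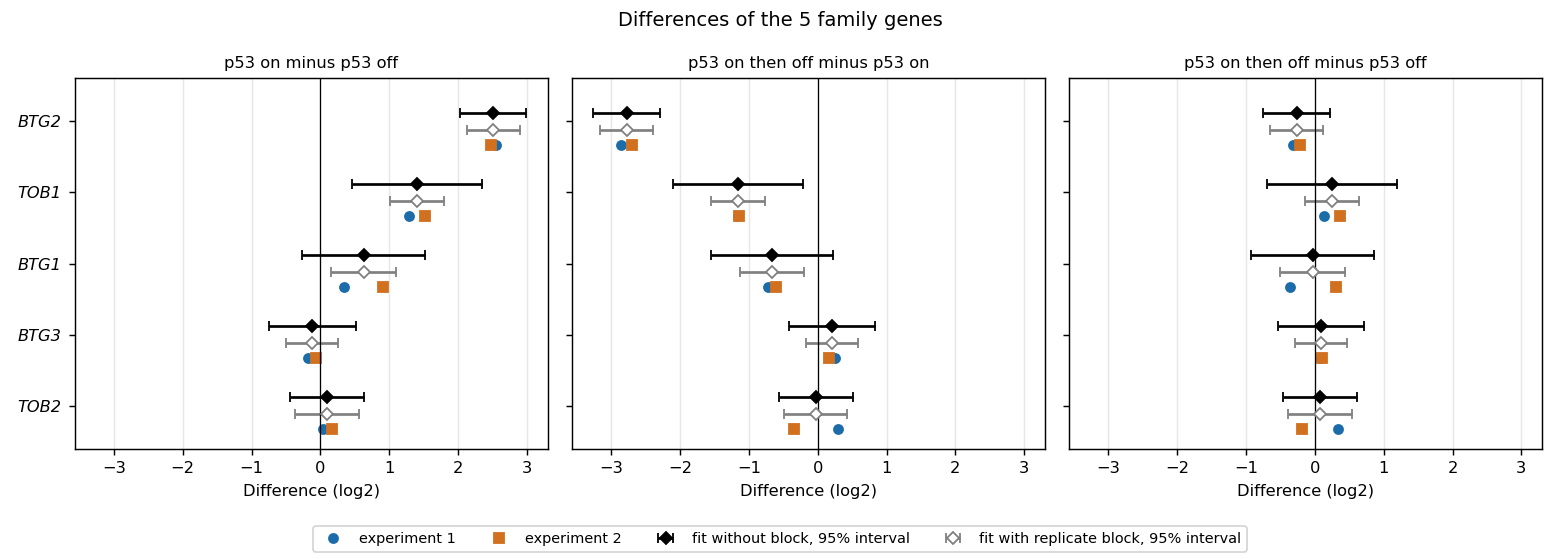
Differences (log2) of the 5 genes in the 3 comparisons. Black diamonds are limma estimates with 95% intervals without the block, open diamonds are those with the experiment number as a block, and circles and squares are the differences within experiments 1 and 2. BTG2 lies at 2.51, -2.78 and -0.27 from left to right, and the black intervals of BTG1, BTG3 and TOB2 cross 0 in every panel. With the block the interval of BTG1 leaves out 0 for p53 on minus p53 off (0.16 to 1.10). It also does so for recovery minus p53 on (-1.13 to -0.19). These intervals are not adjusted over all genes, and BTG1 was not called in either fit.

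The 4 lists described next cover the CCR4-NOT complex, other deadenylases and poly(A) factors, recruiting RNA-binding proteins, and partners and effectors of the family. Over 4 lists of 52 tested genes, 0 were called in any comparison without the block. For p53 on against p53 off, recovery against p53 on and recovery against control, 1.48%, 0.428% and 0.0285% of all genes tested were called. Before adjustment, 9, 6 and 1 of the 52 had a limma p below 0.05 in these comparisons. The same cutoff was met by 2164, 1720 and 746 of all 14025 genes. With the block 3, 2 and 0 of the 52 were called, where 11.5%, 7.24% and 0.599% of all genes tested were. Of 12 subunits of CCR4-NOT none was called with or without the block, and their median for p53 on minus p53 off was -0.10, beside 0.02 for all genes. Their differences in that comparison ran from -0.63 to 0.66, with 4 subunits higher and 5 lower in both experiments. CNOT7, the nuclease subunit bound by BTG and TOB proteins, stood at 7.95 and 7.38 with p53 on, against 7.92 and 7.93 with p53 off, and at 7.82 and 6.90 after recovery. Its paralogue CNOT8 stood at 8.16 and 7.04 with p53 on, against 7.90 and 6.95 with p53 off, and at 8.14 and 6.91 after recovery. Both were named for their known contact with the family and not for their values. RQCD1, the older symbol of the subunit CNOT9, had the smallest p of the complex. It stood at 7.87 and 7.66 with p53 on, against 8.28 and 8.50 with p53 off, and at 8.38 and 8.48 after recovery. Its differences were -0.63 ± 0.20 for p53 on minus p53 off (adjusted p = 0.203, block 0.0589) and 0.66 ± 0.20 for recovery minus p53 on (adjusted p = 0.241, block 0.0659). CNOT3 had the smallest p of the complex for recovery minus control, at 6.44 and 6.61 against 6.87 and 6.84.

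Of 14 other deadenylases and poly(A) factors none was called in either fit, with a median of -0.18 for p53 on minus p53 off. The nuclear deadenylase gene TOE1 was the most different by p at -0.62 ± 0.19 (adjusted p = 0.193, block 0.0547). PAN2, the catalytic subunit of the deadenylase that starts tail shortening, had the smallest p for recovery minus p53 on, at 0.64 ± 0.20 (adjusted p = 0.246, block 0.0702), and also for recovery minus control.

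Of 16 tested genes for RNA-binding proteins and adaptors that bring CCR4-NOT to messages, ZFP36L2 and TNRC6C were called with the block only. For p53 on against p53 off 1 was higher and 1 lower, where the block called 11.5% of all genes tested. For recovery against p53 on 1 was lower, where it called 7.24%. ZFP36L2, which binds AU-rich elements, stood at 8.38 and 8.70 with p53 on, against 7.54 and 7.94 with p53 off, and at 7.48 and 8.08 after recovery. With the block its rise of 0.80 (adjusted p = 0.0223) and its fall of 0.76 (adjusted p = 0.0361) were called, and without it neither was (adjusted p = 0.239 and 0.325). TNRC6C, a scaffold of microRNA silencing, stood at 5.14 and 4.97 with p53 on, against 5.61 and 5.93 with p53 off, a difference of -0.72 (block adjusted p = 0.0466, and 0.175 without it). SAMD4A had the smallest p for recovery minus control, at 5.05 and 5.70 against 4.87 and 4.76. CPEB1 was below the dim value.

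Of 10 tested partners and reported effectors of the family, HOXB9 and SMAD5 were called with the block only. For p53 on against p53 off 1 was lower, where the block called 11.5% of all genes tested. For recovery against p53 on 1 was lower, where it called 7.24%. HOXB9, a homeobox factor that BTG1 and BTG2 bind, stood at 8.43 and 8.99 with p53 on, against 9.61 and 9.63 with p53 off, and at 8.83 and 9.09 after recovery. It fell by 0.91 with the block (adjusted p = 0.0195, and 0.145 without it), and recovery minus control was -0.66 (block adjusted p = 0.201). SMAD5 stood at 6.81 and 6.33 after recovery, against 7.67 and 7.21 with p53 on, a fall of 0.87 with the block (adjusted p = 0.0296, and 0.221 without it). The remaining family gene, BTG4, which is known from oocytes, lay between 1.51 and 2.41 on all 6 arrays, below the dim value, and was not tested.

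**Figure D4:**
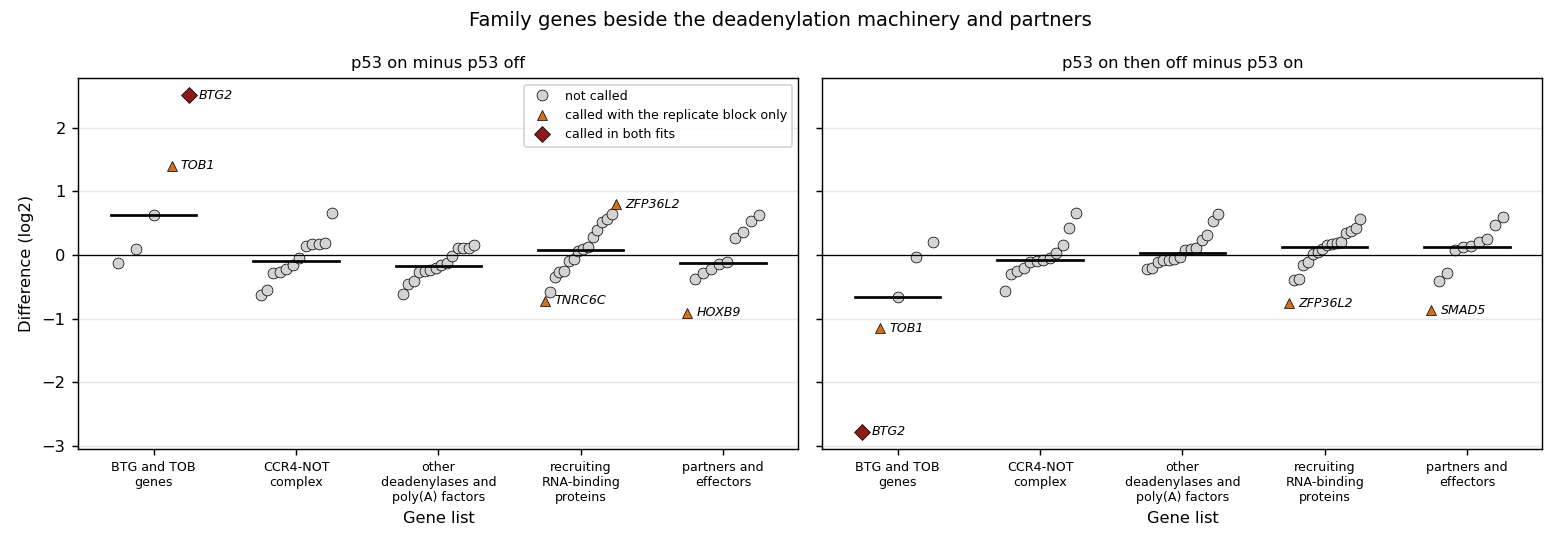
Differences (log2) of the 5 family genes and of 52 genes in 4 lists of the deadenylation machinery and partners, for p53 on minus p53 off (left) and p53 on then off minus p53 on (right). Points are genes, short bars are list medians, diamonds were called in both fits and triangles with the replicate block only. BTG2 at 2.51 and -2.78 is the only diamond in either panel.

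The genes with patterns most like each member were found among 12240 other tested genes with at least 3 probe sets, by the root mean square difference over 4 values (p53 on minus p53 off and recovery minus control, in each experiment). For BTG2 the nearest was PRKAB1, a regulatory subunit of AMP-activated kinase, at 0.21 log2 units, followed by MARCH3, a membrane ubiquitin ligase, at 0.25 and MAPKBP1 at 0.34. PRKAB1 stood at 9.55 and 9.65 with p53 on, against 7.19 and 7.40 with p53 off, and at 6.98 and 7.47 after recovery. For TOB1 the nearest was BAX, the pro-apoptotic pore protein and a known p53 target, at 0.07, then DUSP16, a phosphatase of JNK and p38 kinases, at 0.10, and MARCH8, a membrane ubiquitin ligase, at 0.13. BAX stood at 8.93 and 8.65 with p53 on, against 7.64 and 7.24 with p53 off, and at 7.75 and 7.50 after recovery. For BTG1 they were the transcription factor gene NFATC1 (0.07), FAM119B (0.07) and the receptor phosphatase gene PTPRH (0.08). For BTG3 they were ANKRD13D (0.03), the translation initiation factor subunit gene EIF3A (0.03) and the ribonuclease H2 subunit gene RNASEH2C (0.03), and for TOB2 they were MTMR9L, SPEF1 and GGNBP1 (0.05 to 0.06). By the same measure the nearest members to each other were BTG3 and TOB2 (0.25), and BTG2 was nearer to TOB1 (0.87) than to BTG1 (1.37). Likeness over 4 values from 6 arrays is a description, and many genes with small differences lie close together.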

How the data were processed

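Total RNA of 6 HT29-tsp53 cultures was hybridised to Affymetrix Human Gene 1.0 ST arrays, per the labels' protocols. The authors deposited 1 value per exon-level probe set and array, taken here as log2 because the range is -0.85 to 13.14. Neither the program nor any background or normalization step is given in the sources used here. Column medians lay between 5.24 and 5.31, and no scaling was added. Of 257430 probe sets, 224320 carried 1 gene symbol in the platform annotation, 10159 several and 22951 none. A gene's value per array was the median over its single-symbol probe sets, and genes in the lowest 25% by mean (under log2 3.62) were left out, leaving 14025. The tests used limma 3.58.1 (R 4.3.3) on all 6 arrays with group as the factor, Benjamini-Hochberg adjustment over all genes and calls at adjusted p under 0.05. The fit was also run on simulated arrays with independent noise, without the deviations that same-numbered arrays share in the data. That run cannot decide between the fits with and without the block. An exact permutation test of 2 against 2 cannot go below p = 0.333, and the number of arrays limits precision.

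The experiment number comes from the labels' descriptions. Same-numbered arrays deviated together from their group means (r across genes 0.496, 0.551 and 0.63), so the number was taken to pair the samples. The fit without it was the main one. Standard errors and 95% intervals in the text are from that fit unless the block is named, so differences between the experiments stay in them. For TOB1 the standard error of p53 on minus p53 off was 0.40, against 0.17 with the block. The fit with the number as a replicate block is given where it changes a call and for some intervals. Named genes are the members, CDKN1A and MDM2, list genes called in either fit or with the smallest p in a list with none called, and the 3 genes of most like pattern per member. CNOT7, CNOT8, CDH17, CD68, ITGAM, PTPRC, CD3E, CPEB1 and BTG4 are named beyond that rule. Members and lists were chosen with earlier results of these data known. The transgene's own RNA was not analysed here. Promoter sequences are from RefSeq (GRCh38.p14), where all 5 members matched by symbol. No probe sequences were used, so cross-hybridisation between relatives was not examined.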

Additional observations from a re-analysis of the deposited data

How the results depend on the processing

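The differences of BTG2, TOB1 and BTG1 for p53 on minus p53 off and for recovery minus p53 on kept their sign under every alternative run. BTG2 lost its call for recovery minus p53 on in the fit of only the groups compared (-2.78, adjusted p = 0.0503). Without 1 array its rise lay between 2.38 and 2.63 and its fall between -2.90 and -2.65. TOB1 gained calls with the replicate block (1.40 and -1.15) and with the mean of probe sets (1.02 and -1.20), and without 1 array lay between 0.99 and 1.82 and between -1.57 and -0.73, or with the block between 1.28 and 1.52 and between -1.21 and -1.09. BTG1 without 1 array lay between 0.10 and 1.16 and between -0.91 and -0.42. In blocked fits without 1 array, which were added after seeing the data, it lay between 0.32 and 0.94 (called in 1 of 6) and between -0.86 and -0.47 (called in 2 of 6). The block changed no other member's call.

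Signs turned only for uncalled values. With the mean of probe sets these were BTG3 (0.01) and TOB2 (-0.23) for p53 on, TOB2 (0.30) for recovery minus p53 on and TOB1 (-0.18) for recovery minus control. With only probe sets above the dim value TOB2 gave -0.19, 0.08 and -0.11 in the 3 comparisons. Without 1 array BTG3 lay between -0.35 and 0.11, -0.01 and 0.42, and -0.14 and 0.32. TOB2 lay between -0.04 and 0.24, -0.21 and 0.15, and -0.11 and 0.25. For recovery minus control BTG1 lay between -0.56 and 0.50 and TOB1 between -0.17 and 0.67. In blocked fits without 1 array the ranges were -0.09 to 0.29, -0.32 to 0.26 and -0.22 to 0.36 for TOB2, and -0.34 to 0.28 for BTG1 after recovery minus control. BTG3 was not among the genes tested under the stricter filter on dim genes. The cause of these shifts was not tested.

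Counts over all genes moved more. For p53 on against p53 off, 126 were higher and 82 lower, with 726 and 881 under the block, 264 and 214 with the mean of probe sets, 83 and 30 with no filter, 46 and 4 in the fit of only the groups compared, 53 lower with only probe sets above the dim value, 3 to 46 and 0 to 5 without 1 array, and 347 to 733 and 265 to 896 without 1 array under the block. For recovery against p53 on, 20 were higher and 40 lower, with 539 and 476 under the block, 80 and 102 with the mean, 11 higher with no filter, 0 and 0 in the fit of only the groups compared, 0 to 0 and 0 to 4 without 1 array, and 194 to 675 and 207 to 584 without 1 array under the block. For recovery against control, 4 were higher and 0 lower (746 at an unadjusted p under 0.05 in limma), with 29 and 55 under the block, 1 to 3 higher without 1 array, and 13 to 94 and 4 to 152 without 1 array under the block. Listed pathway genes called with the block were 1 higher and 2 lower for p53 on and 2 lower for recovery against p53 on, and 0 to 1, 0 to 2 and 0 to 2 without 1 array.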
